A study of Mus musculus with 12 samples.

Results

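The gap and tight junction genes examined here were a chosen set of 9 genes, Gja1, Gjb2, Gjb5, Gjb6, Cldn1, Cldn4, Cldn7, Ocln and Tjp1, with every array probe annotated to them. Of these 9 genes, 8 had a probe in the table analysed, with 10 probes in all out of 25697. Gjb2 had 3 probes, each of the 7 other genes had 1, and Gjb6 had none listed, so Gjb6 was not analysed here. RNA was measured on Illumina bead arrays from 5 normal tongues of control B6 mice given DMSO and 7 tongue tumours of B6 mice given 4NQO, a DNA-damaging carcinogen, at 200 µg/mL together with arecoline, an alkaloid of areca nut, at 500 µg/mL. Both groups were 8 months old, were treated for 8 weeks and rested for 20 weeks before collection. The study compared gene expression in tumour with that in normal tongue. The labels do not say whether each piece came from a separate animal, so p-values measure a difference against the spread between pieces only.

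Gap junctions are clusters of channels that join the cytoplasm of neighbouring cells and let ions and small metabolites pass. Each channel is built of connexins, such as Gja1, the most widespread connexin, and Gjb2, which is scarce in resting mouse epidermis and abundant where keratinocytes proliferate or close a wound. Tight junctions seal the space between epithelial cells. Claudins form their strands, occludin (Ocln) joins them, and Tjp1, a zonula occludens scaffold protein, ties both to the actin cytoskeleton.

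The promoters of Gjb2, Gja1 and Cldn4 are shown because these were the 3 genes called higher in tumours. Each window covers 250 bases before and 50 bases after the start of the gene, from RefSeq on build GRCm38.p6, read 5′ to 3′ on the strand of the gene. The Gjb2 window lies at chr14:57104653-57104952 on the minus strand, that of Gja1 at chr10:56377050-56377349 on the plus strand and that of Cldn4 at chr5:134946885-134947184 on the minus strand. Capitals mark matches on either strand to the GC box GGGCGG, the AP-1 site TGANTCA and the E-box CAGGTG.
Gjb2: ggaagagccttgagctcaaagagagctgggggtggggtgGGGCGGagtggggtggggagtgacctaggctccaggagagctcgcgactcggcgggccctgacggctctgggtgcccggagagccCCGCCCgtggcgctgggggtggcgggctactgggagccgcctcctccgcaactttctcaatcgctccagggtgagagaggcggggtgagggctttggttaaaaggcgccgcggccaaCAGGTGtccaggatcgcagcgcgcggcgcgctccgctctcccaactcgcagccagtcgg
Gja1: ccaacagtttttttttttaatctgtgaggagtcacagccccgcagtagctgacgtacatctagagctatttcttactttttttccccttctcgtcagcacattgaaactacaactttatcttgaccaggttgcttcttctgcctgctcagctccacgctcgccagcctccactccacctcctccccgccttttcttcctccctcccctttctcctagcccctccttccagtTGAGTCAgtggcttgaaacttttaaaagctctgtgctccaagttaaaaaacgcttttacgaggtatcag
Cldn4: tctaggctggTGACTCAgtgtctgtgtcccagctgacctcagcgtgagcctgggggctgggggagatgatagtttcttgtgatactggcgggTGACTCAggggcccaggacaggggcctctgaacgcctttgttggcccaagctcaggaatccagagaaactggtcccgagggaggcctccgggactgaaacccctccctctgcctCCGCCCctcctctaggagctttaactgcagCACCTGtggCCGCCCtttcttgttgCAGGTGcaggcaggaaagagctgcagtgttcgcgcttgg

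The Gjb2 window held 2 GC boxes and 1 E-box and was 70.0% G and C, against a median of 52.7% over all windows. The Gja1 window held 1 AP-1 site, 19 bases before the start, and no GC box or E-box. The Cldn4 window held 2 GC boxes, 2 AP-1 sites and 2 E-boxes. Among all 32851 windows of this length, 35.7% held the GC box, 7.81% the AP-1 site and 20.2% the E-box. TATAAA, found in 13.6% of all windows, and AACCNGTT, found in 2.09%, were also searched, and no match lay in these 3 windows. Windows of genes not called held some of the same sites. Those of Cldn1 and Tjp1 held 2 GC boxes each, and windows of Ocln and Cldn7 held GC boxes and E-boxes. None of them held the AP-1 site. The Tjp1 window was 65.3% G and C, and those of Ocln were 64.0% and 68.0%. A match is a description of the letters, no binding was measured, and a link of sites to the calls was not tested.

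Of the 10 probes, 9 lay above background on at least 5 arrays and were tested, and the Gjb5 probe did not. In tumours 5 of these 9 probes were called higher, 0 lower and 4 were not called, by limma with Benjamini-Hochberg adjustment over all 15708 probes kept. Over all those probes 32.5% were called higher and 22.8% lower. The 5 probes belonged to 3 genes, all 3 probes of Gjb2 and those of Gja1 and Cldn4. Tumours and normals were fully separated on 3 of the 9 probes, those of Gjb2, as they were on 36.9% of all probes kept.

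**Figure D1:**
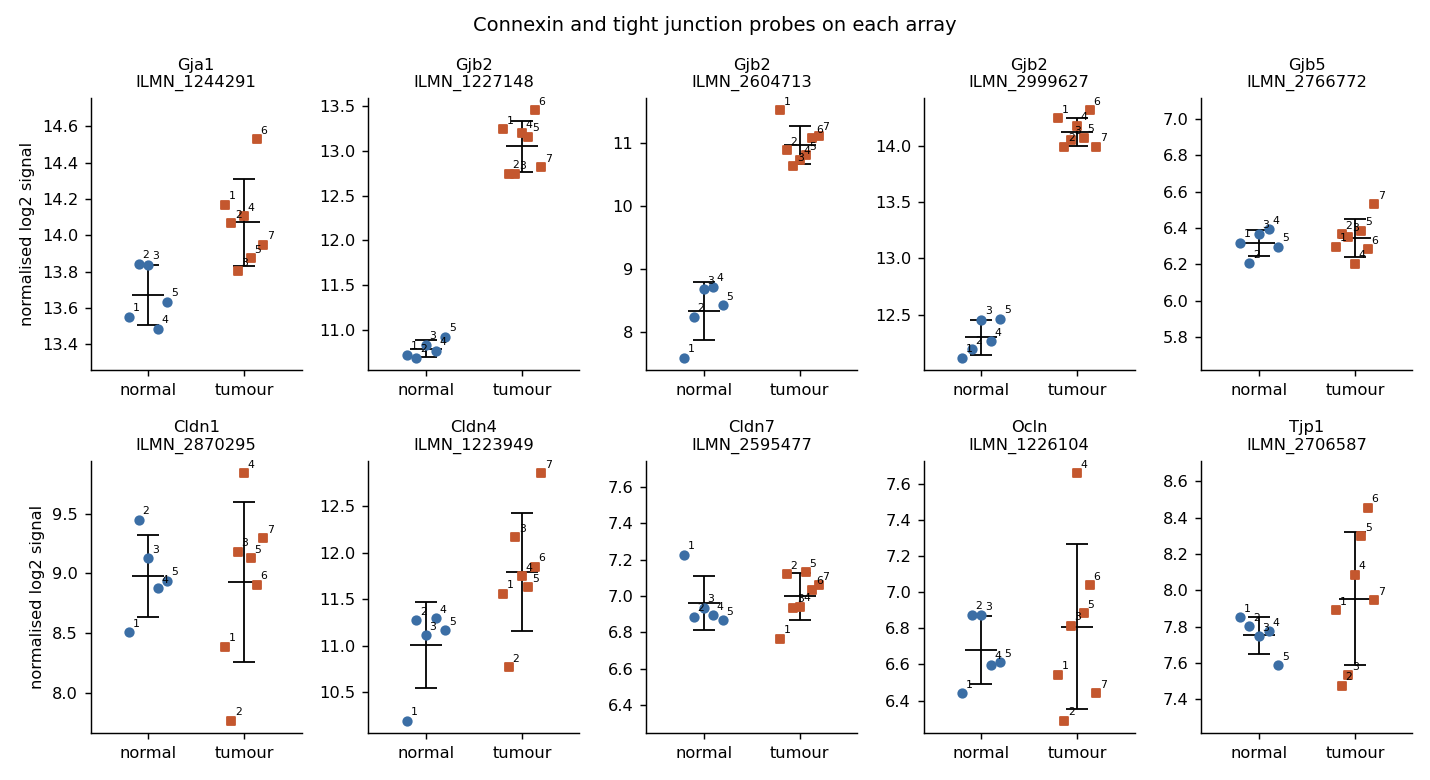
Normalised log2 signal (y axes, separate scale for each panel) of the 10 junction probes on 5 normal tongue arrays (blue circles) and 7 tumour arrays (orange squares), with array numbers beside the points and the mean ± SD in black. The 3 Gjb2 probes separate the groups. The SD is larger among tumours than among normal tongues for Gja1, Gjb5, Cldn1, Cldn4, Ocln, Tjp1 and Gjb2 probe ILMN_1227148. It is smaller for Cldn7 and the other Gjb2 probes.

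Gjb2 rose most of the genes examined here, on each of its 3 probes. On probe ILMN_2999627 the normalised log2 signal was 12.11, 12.19, 12.46, 12.26 and 12.46 in normal tongues 1 to 5. In the tumours it ran from 14.00 to 14.32 with a median of 14.08. Every tumour lay above every normal tongue, and both groups were narrow.

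The change on that probe was log2 1.83 (SE 0.09, adjusted p = 2.06e-08 in limma, 5 normals against 7 tumours), a 3.55-fold rise. Probe ILMN_1227148 rose 4.80-fold, from 10.79 ± 0.09 (SD, n = 5) to 13.05 ± 0.28 (SD, n = 7). Probe ILMN_2604713 rose 6.21-fold, from 8.34 ± 0.46 (SD, n = 5) to 10.97 ± 0.30 (SD, n = 7), with normal tongue 1 lowest at 7.60. The probes thus shared the direction and differed in size, with log2 changes of 1.83, 2.26 and 2.63. Of all probes kept, 1.40%, 0.694% and 0.439% changed further upward than these, in the same order.

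Gja1, which encodes a connexin of epithelium, fibroblasts, endothelium and muscle, was called higher by a small amount. Its signal was 13.55, 13.84, 13.84, 13.48 and 13.63 in normal tongues 1 to 5. The tumours ran from 13.80 to 14.53 with a median of 14.07, tumour 6 being highest. The groups overlapped, as normal tongues 2 and 3 lay above tumour 3.

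The Gja1 change was log2 0.40 (SE 0.12, adjusted p = 0.0121 in limma), a 1.32-fold rise, and its direction depended on the scaling. It was 0.27 and not called on the deposited values as they stand, 0.02 and not called under cyclic loess, −0.18 when arrays were centred on reference genes and −0.54, called lower, when centred on squamous epithelium markers. The 5 reference genes measured all rose here, with a median of 0.57, which exceeds the Gja1 change.

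Gjb5, a connexin of differentiating keratinocytes in mouse skin, was near background throughout. Its probe lay above background in 0 of 5 normals and 1 of 7 tumours, with 6.21 to 6.39 in normals and 6.20 to 6.53 in tumours. No test was made of it.

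The balance of the connexins was measured within each array, since a ratio of 2 probes does not move when a whole array is shifted. The log2 ratio of Gjb2 to Gja1, less its mean in normal tongue, ran from −0.28 to 0.20 in normals and from 1.16 to 1.63 in tumours. The difference of 1.43 had p = 0.00126 in an exact two-sided permutation test, the smallest p that its 792 assignments allow, and an adjusted p = 0.00631 over the 5 ratios tested. All 7 tumours lay above all 5 normals, so Gjb2 rose further than Gja1 on these probes.

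Cldn4, a claudin of many epithelia, was the tight junction gene called higher. Its signal was 10.20, 11.28, 11.11, 11.30 and 11.17 in normal tongues 1 to 5. The tumours ran from 10.77 to 12.86 with a median of 11.75, tumour 7 being highest and tumour 2 lowest. Tumour 2 lay below 4 of the 5 normals and the other 6 tumours lay above all normals.

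The Cldn4 change was log2 0.79 (SE 0.30, adjusted p = 0.0397 in limma), a 1.72-fold rise. This call was lost in 8 of the 12 fits that left out 1 array (normal 1, 3 or 5, or tumour 3, 4, 5, 6 or 7; log2 0.58 to 0.96 and adjusted p = 0.00627 to 0.114 over all 12). It was also lost under cyclic loess (0.57), with reference genes as the centre (0.21), with no filter on signal, in a fit blocked on replicate number (0.56) and in the exact permutation test adjusted over all probes (adjusted p = 0.0679), and the direction turned to −0.16 with squamous epithelium markers as the centre.

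Cldn1, the claudin that newborn mice need for a watertight skin, had a change near 0. Its signal was 8.51, 9.45, 9.13, 8.88 and 8.94 in normal tongues 1 to 5. The tumours ran from 7.77 to 9.84 with a median of 9.13, and so reached both above and below all normals. Tumour 4 was highest and tumour 2 lowest. The change was log2 −0.05 (95% interval −0.69 to 0.59, adjusted p = 0.901 in limma), and it turned to 0.07, 0.04 and 0.14 without normal 2, tumour 1 and tumour 2.

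Cldn7, a claudin of the lateral membrane of epithelial cells, stayed within a narrow range at a low signal. It was above background on every array. Its deposited values of 6.63 to 7.10 lay little above the background thresholds of 6.20 to 6.33, so the size of any change is uncertain. Its signal was 7.23, 6.88, 6.93, 6.89 and 6.87 in normal tongues 1 to 5, and 6.76 to 7.13 with a median of 7.03 in tumours. The log2 change was 0.04 (95% interval −0.15 to 0.22, adjusted p = 0.738 in limma). Normal tongue 1 was the highest of all 12 arrays.

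Ocln was close to background on several arrays, above it in 4 of 5 normals and 5 of 7 tumours. Its signal was 6.44, 6.87, 6.87, 6.60 and 6.61 in normal tongues 1 to 5, and ran from 6.29 to 7.66 with a median of 6.81 in tumours. Tumour 4 stood highest and tumour 2 lowest. The log2 change was 0.13 (95% interval −0.30 to 0.56, adjusted p = 0.614 in limma), or −0.01 without tumour 4.

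Tjp1 had 7.85, 7.80, 7.75, 7.77 and 7.59 in normal tongues 1 to 5 and 7.47 to 8.45 with a median of 7.95 in tumours. Tumours 6, 5 and 4 were highest, in that order, and tumours 2 and 3 lay below all normals. The log2 change was 0.20 (95% interval −0.14 to 0.54, adjusted p = 0.299 in limma). The SD among tumours was 0.37 (n = 7), against 0.10 among normals (n = 5).

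Ratios within arrays were also formed among the tight junction genes. Cldn4 over Cldn1 rose by log2 0.84 (p = 0.0152, adjusted p = 0.0379 over the 5 ratios, exact two-sided permutation test). The tumours lay at −0.13 to 1.53 around the normal mean and the normals at −0.34 to 0.39, so the groups overlapped. The adjusted p was 0.0873 without normal 1 and tumour 2, and the call was lost in 8 of the 12 fits that left out 1 array (any normal, or tumour 1, 3 or 6; 0.72 to 1.00 over all 12). Cldn4 over Cldn7 differed by 0.75 (p = 0.0795, adjusted p = 0.133, exact permutation test), or 0.94 (adjusted p = 0.0108, exact permutation test) without tumour 2. Cldn7 over Cldn1 differed by 0.09 and Ocln over Tjp1 by −0.07, each with an adjusted p = 0.816 in the exact permutation test.

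**Figure D2:**
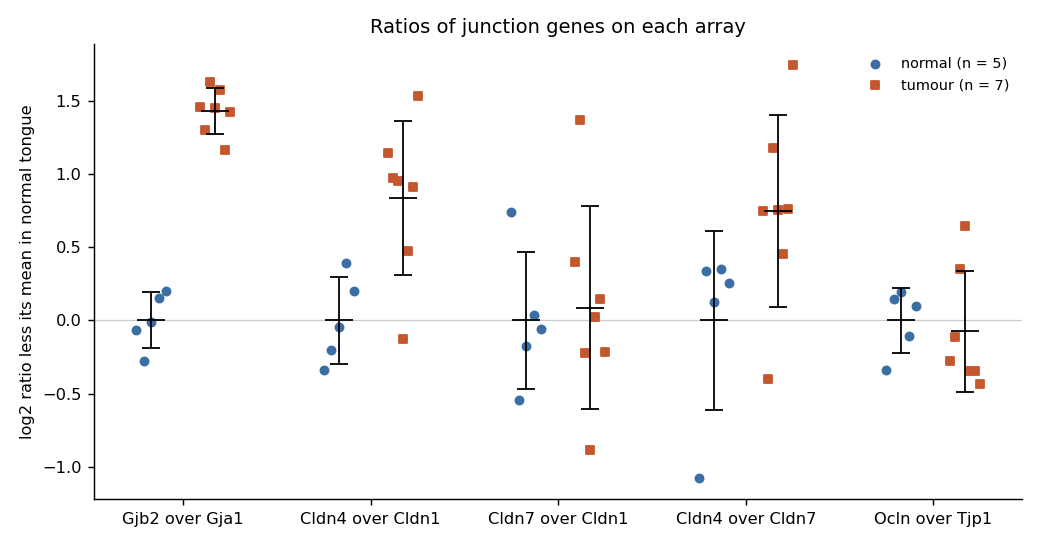
Log2 ratio of 2 genes on the same array, less the mean ratio in normal tongue (y axis), for 5 gene pairs (x axis), in 5 normal tongues (blue circles) and 7 tumours (orange squares), with the mean ± SD in black. Gjb2 over Gja1 is 1.16 to 1.63 in tumours and at most 0.20 in normals, and the groups overlap in the other 4 pairs.

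Markers of several cell types differed between the groups. Squamous epithelium markers were higher in tumours in 5 of 7 cases (Krt5, Trp63, Cdh1, Perp and Itga6), with Krt14 lower and Jup not called. Their log2 changes were 2.03 (Itga6), 1.87 (Krt5), 1.37 (Trp63), 0.76 (Cdh1), 0.63 (Perp), 0.25 (Jup) and −0.30 (Krt14). Their mean log2 signal was 10.27 to 10.71 in normals and 11.19 to 11.60 in tumours, a difference of 0.94. Skeletal muscle markers were lower in 8 of 8 cases, with means of 13.35 to 13.91 in normals and 7.99 to 12.28 in tumours, tumour 2 being highest. Endothelium markers were lower in 5 of 6 cases, from 8.76 to 8.93 in normals to 7.80 to 8.43 in tumours, and fibroblast markers were lower in 3 of 6 and higher in 1. In bulk tissue, fewer cells of a type and less RNA per cell cannot be told apart, and the part of these cell types in the junction results was not tested.

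With each array centred on the squamous epithelium markers, the median change of all probes kept moved from 0.07 to −0.87. Gjb2 was called higher on this scale too, by log2 0.88, 1.32 and 1.69 on its 3 probes. The centre is a mean, so this compares Gjb2 with the average marker and not with each one. Before centring, single markers had changed by −0.30 (Krt14) to 2.03 (Itga6), and these Gjb2 probes by 1.83, 2.26 and 2.63. The other junction genes fell or were not called on the centred scale. Cldn1 at −0.99, Cldn7 at −0.91, Ocln at −0.81, Tjp1 at −0.74 and Gja1 at −0.54 were called lower, and Cldn4 at −0.16 was not called. Set against the median of −0.87, all of these but Cldn1 and Cldn7 lay above it. With reference genes as the centre the median was −0.51, and Gjb2 was called higher by 1.25 to 2.06.

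**Figure D3:**
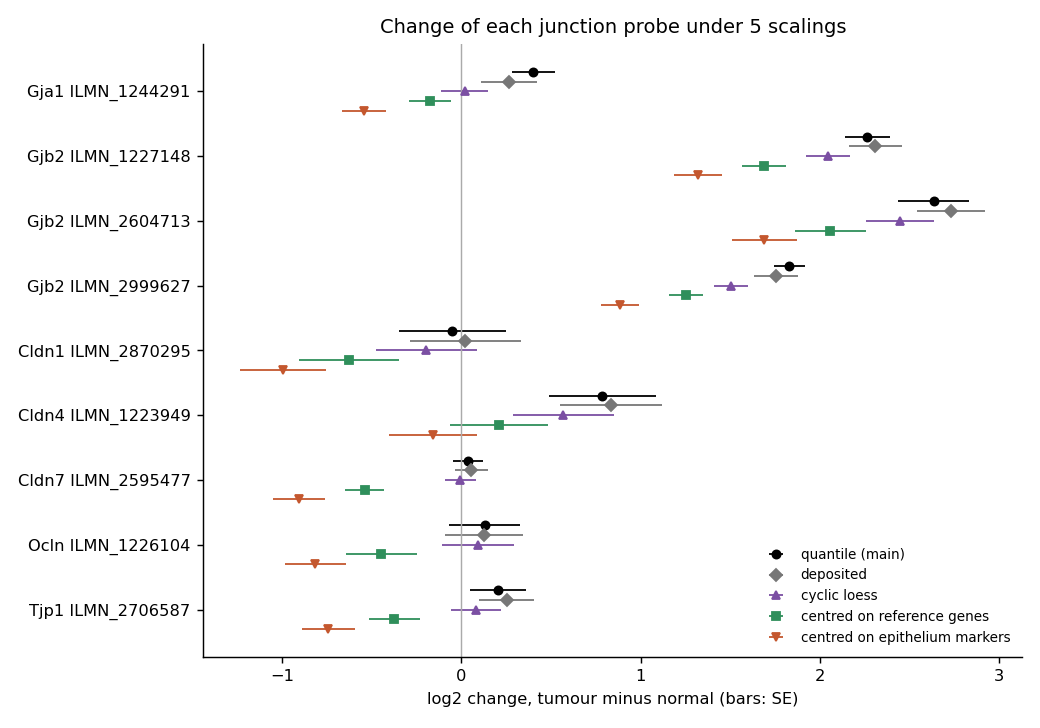
Log2 change of tumours against normal tongue (x axis, bars are SE) for the 9 junction probes tested (y axis), under quantile normalisation, the deposited values, cyclic loess, centring on reference genes and centring on squamous epithelium markers. The Gjb2 probes lie between 0.88 and 2.73 under all 5, while Gja1, Cldn1, Cldn4, Cldn7, Ocln and Tjp1 lie on both sides of 0.

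Several arrays stood apart in ways that touched the claudins. Normal tongue 1 and tumour 2 had the highest means of the 4 salivary gland markers kept, 13.31 and 9.80 against 6.39 to 7.69 on the other arrays. In tumours the highest values were 12.63 for Dcpp1 and 12.39 for Aqp5, but 7.30 for Amy1 and 6.88 for Bpifa2. Amy1 was at least 8.13 in normals, so not every marker was high in tumour 2. Normal tongue 1 had the lowest Cldn4, Cldn1 and Ocln and the highest Cldn7 of the normals, with the lowest squamous epithelium mean, 10.27, and the highest muscle mean, 13.91. Tumour 2 had the lowest Cldn4, Cldn1, Ocln and Tjp1 of the tumours. Tumour 2 also had the lowest squamous epithelium mean of the tumours, 11.19. The part of salivary gland, muscle or epithelium in these values was not tested, and without both arrays the same number of junction probes, 5, was called higher.

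**Figure D4:**
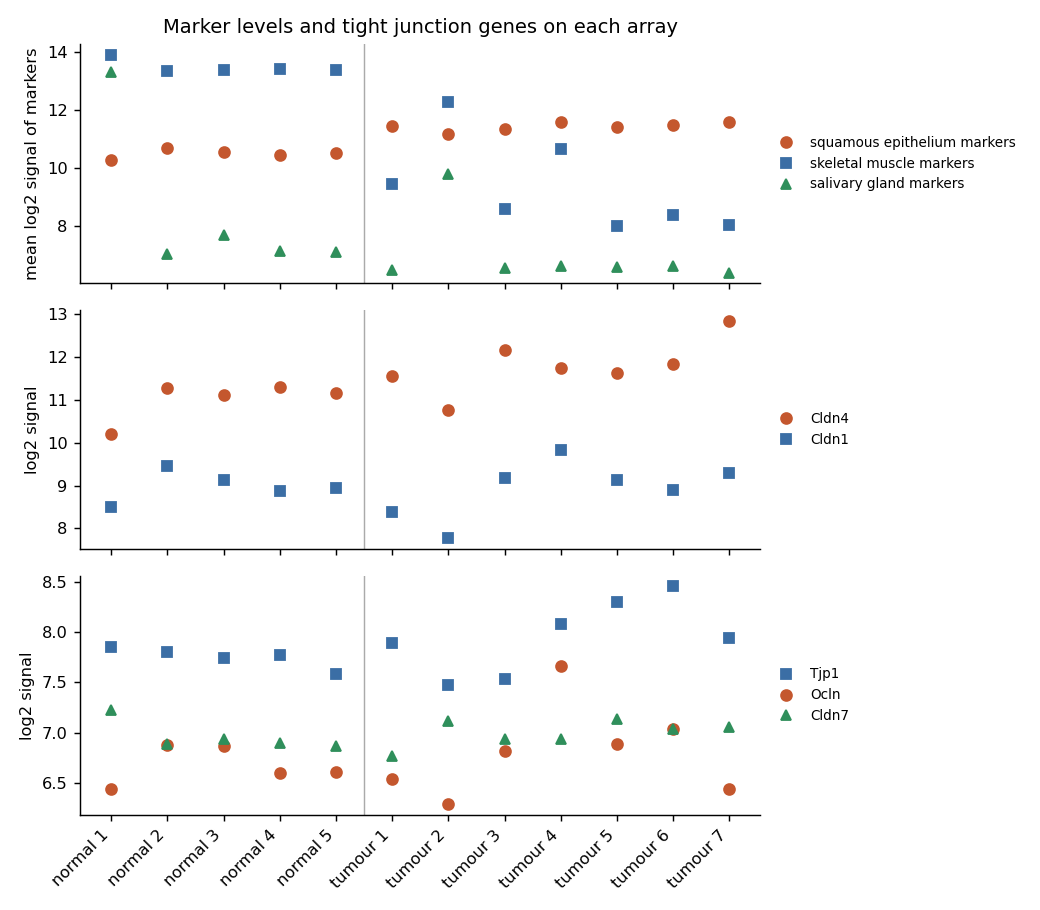
Mean log2 signal of squamous epithelium, skeletal muscle and salivary gland markers (top), log2 signal of Cldn4 and Cldn1 (middle) and of Tjp1, Ocln and Cldn7 (bottom) on each of the 12 arrays (x axis, normal tongue left of the line). Tumour 2 has the highest muscle level of the tumours, 12.28, and the lowest Cldn4 and Cldn1. Heights of different genes are not comparable.

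Among tumours the junction genes varied with no pair passing the test. Of 9 pairs examined over the 7 tumours, Gjb2 with Gja1 had the highest Pearson correlation (r = 0.80, exact permutation p = 0.0210, adjusted p = 0.160; Spearman rho = 0.70, exact permutation p = 0.0897, adjusted p = 0.404). Without tumours 1 and 6, the farthest from the median of Gjb2, its r was 0.28 over the 5 left. Leaving out extremes narrows the range, so this fall cannot show whether r rested on them. Cldn1 with Ocln had r = 0.76 (exact permutation p = 0.0534, adjusted p = 0.160; rho = 0.50, p = 0.267, adjusted p = 0.480) and 0.62 without tumours 1 and 2. The squamous epithelium mean with Cldn1 had r = 0.75 (exact permutation p = 0.0528, adjusted p = 0.160; rho = 0.64, p = 0.139, adjusted p = 0.417) and 0.38 without tumours 2 and 7. Ocln with Tjp1 had the highest Spearman correlation (rho = 0.75, exact permutation p = 0.0663, adjusted p = 0.404; r = 0.52, p = 0.232, adjusted p = 0.418), and its r was 0.50 without tumours 2 and 4. The other 5 pairs had r from −0.28 to 0.61 and rho from −0.14 to 0.57, with adjusted p of 0.319 or more by exact permutation.

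The genes most like each junction gene were found by Pearson r over the 12 arrays, after each group's mean was taken away, among 10594 genes. All points share their array and its scaling, and a search over so many genes yields high values, so these are descriptions. Cldn1 was most like Kif4 (r = 0.97), a chromosome motor of mitosis, followed by Depdc1b and Atad5. Cldn4 was most like Hjurp (r = 0.96), a chaperone of the centromeric histone, followed by Hmgb2 and Chst15. Ocln was most like Krtap13 (r = 0.95), a keratin-associated protein, followed by Krtap13-1 and Krt76, a keratin of oral mucosa, and tumour 4, the array farthest from its group in Ocln, raised this value from 0.91. Tjp1 was most like the kinase Hipk2 (r = 0.97), followed by Idi1 and Mlx. Gja1 was most like Tpbg (r = 0.91), followed by Pcdh7 and Cnih1, an order that rested on tumour 6, since without it r was 0.81 for Tpbg, 0.82 for Pcdh7 and 0.88 for Cnih1. Cldn7 was most like Rrm2b (r = 0.92), followed by Rpn1 and Slc37a4. Gjb2 was most like Kif9 (r = 0.86), followed by Tmem79 and Fgf22.

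Of the other connexins and pannexins, 14 had a probe and 7 passed the signal filter. Of these 1 rose, 0 fell and 6 were not called, with a median log2 change of 0.05, where 32.5% of all 10789 genes kept were called higher and 23.6% lower and their median was 0.07. The gene that rose was Panx1, which forms channels that release ATP, with 8.03 to 8.42 in normals and 9.03 to 9.93 in tumours. Its change was log2 1.30 (SE 0.15, adjusted p = 1.35e-05 in limma), all 7 tumours lay above all 5 normals, and it was 0.35 and not called with squamous epithelium markers as the centre. Gjc3, a connexin of myelinating glia, and Gjd4, a connexin of muscle, were above background on 0 of 12 arrays.

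Of the other claudins, 16 had a probe and 8 passed the filter. Of these 0 rose, 1 fell and 7 were not called, with a median of −0.08, where 32.5% of all genes kept rose and 23.6% fell. Cldn23 fell, from 8.61 to 9.07 in normals to 6.73 to 8.81 in tumours, so the groups overlapped. Its change was log2 −1.20 (SE 0.30, adjusted p = 0.00416 in limma), and it was called lower under every alternative tried, from −2.14 to −1.03. Some claudins are named after their values were seen. Cldn10 had a mean of 9.16 in normals and 8.00 in tumours and was not called (log2 −1.16, SE 1.22), with 12.88 as its highest normal and 13.52 as its highest tumour. Cldn11 and Cldn19 were each above background in 4 of 5 normals and 0 of 7 tumours, and so did not pass the filter.

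Of the other tight junction proteins, 25 had a probe and 22 passed the filter. Of these 5 rose, 10 fell and 7 were not called, with a median of −0.16. Among all genes kept 32.5% were called higher and 23.6% lower, with a median of 0.07. The risers were Cxadr, an adhesion receptor of epithelial cells (log2 1.68, SE 0.13), Lsr, which marks corners where epithelial cells meet (1.12, SE 0.08), the polarity protein Pard6g (0.99, SE 0.14), the scaffold Patj (0.76, SE 0.09) and F11r, an epithelial junctional adhesion molecule (0.75, SE 0.13). Limma gave them adjusted p-values from 1.77e-07 to 3.69e-04. All 7 tumours lay above all 5 normals for each of these 5 genes, and the groups were fully separated on 36.9% of all probes kept. With squamous epithelium markers as the centre Patj and F11r turned to −0.18 and −0.20, and Cxadr alone of the 5 was called higher, by 0.73. Of the other 3 Patj probes, 2 were called higher, at 0.52 and 0.38, and 1 had 0.10 and was not called.

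The largest falls of that list were in Mpdz, a scaffold with many PDZ domains (log2 −1.19, SE 0.10, adjusted p = 5.45e-07), Jam2, a junctional adhesion molecule of endothelium (−1.08, SE 0.16, adjusted p = 1.15e-04), and Ybx3, a transcription factor that binds the Tjp1 protein (−0.80, SE 0.29, adjusted p = 0.0320), all in limma. Tumours lay below all normals for Mpdz and Jam2. Jam2 was above background in 4 of 7 tumours, so the size of its fall is uncertain on the tumour side. Other probes of both genes were called lower by less, at −0.61 for Mpdz and at −0.77, −0.54 and −0.52 for Jam2. The Ybx3 groups overlapped, and its call was lost in 8 of the 12 fits that left out 1 array (normal 1, 3 or 5, or tumour 1, 2, 3, 5 or 7; −1.05 to −0.71 over all 12), although its other 2 probes were called lower at −0.61 and −0.79. The Ybx3 call was also lost on the deposited values (adjusted p = 0.0563 in limma), with no signal filter (0.0502), in the exact permutation test (0.0623) and without normal 1 and tumour 2 (0.0900). The mean of the endothelium markers was also lower in tumours than in normals, and its part in the Jam2 fall was not tested. Some smaller falls differed between probes. Magi1 (−0.38) had other probes at −0.01 and −0.15 not called and another at −0.40 called lower. Tjap1 (−0.69) had another at −0.03 not called and another at −0.71 called lower. Jam3 (−0.35) was above background in 0 of 7 tumours, so the size of its fall is uncertain.

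**Figure D5:**
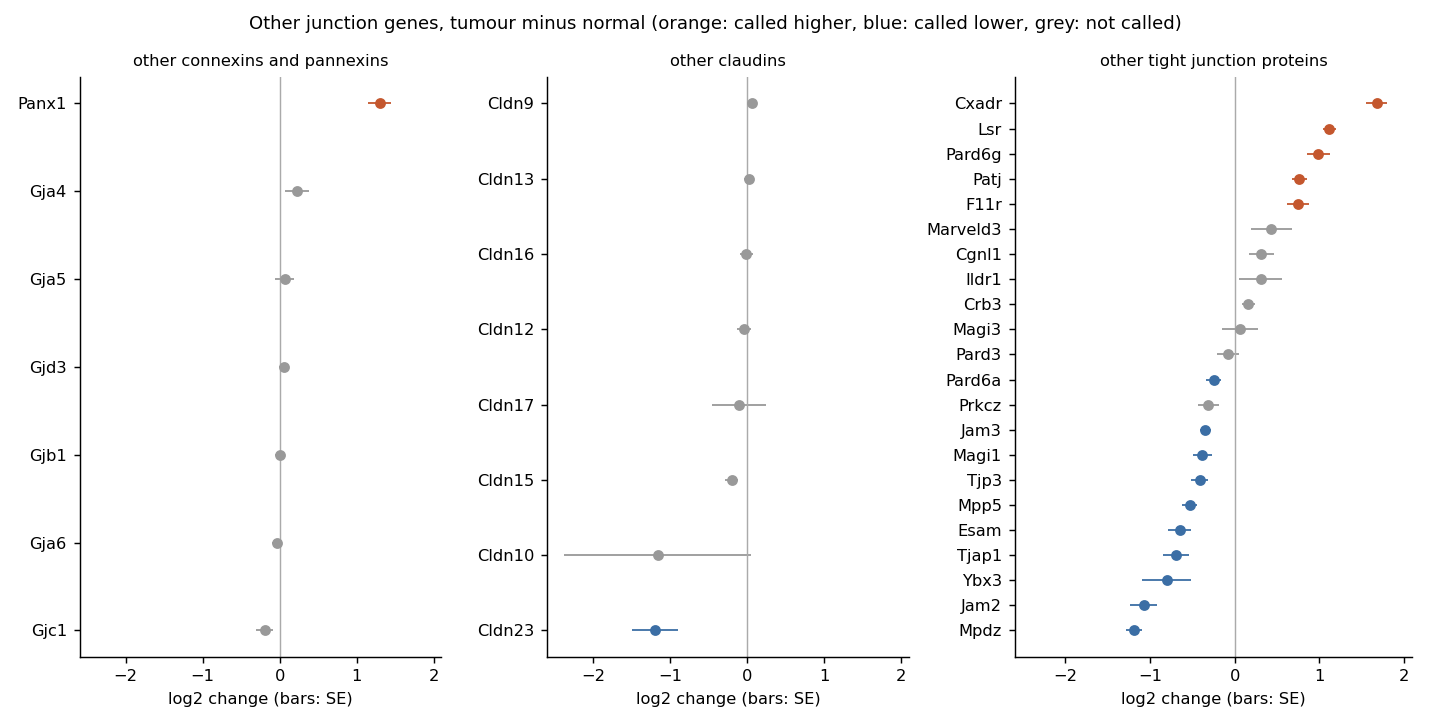
Log2 change of tumours against normal tongue (x axes, bars are SE) for the other connexins and pannexins, the other claudins and the other tight junction proteins that passed the signal filter, 1 probe per gene. Orange genes were called higher, blue genes lower and grey genes were not called, and Cxadr and Panx1 have the largest rises while Cldn23 and Mpdz have the largest falls of called genes.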

How the data were processed

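RNA of 5 normal tongues and 7 tongue tumours was measured on Illumina arrays, 1 array per piece. The authors' deposited log2 values were the starting point, for 25697 probes, of which 23978 carry 1 gene symbol in the array's annotation. The base was inferred from their range, and all arrays had the same median, 6.56. The submitters' processing notes name BeadStudio and Partek 6.6, whose use is not given in the sources used here. Another deposited table, with signals and detection p-values, was set aside because the names of its 24 value columns fit no label. The design had named detection p-values as the first choice of signal filter, and its stated substitute was applied.

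Signals were first made linear, then corrected with normexp (offset 50), quantile normalised and expressed in log2. A probe was kept when at least 5 arrays lay above the mode of that array plus 1.64 standard deviations of the side below it, a tail of 5.1%. On each array 14691 to 15432 probes were above background. Precision is limited by how few arrays there are. Groups were compared with limma 3.58.1 in R 4.3.3 (two-sided, Benjamini-Hochberg over 15708 probes, threshold 0.05). The fit was also run on simulated data with independent noise and no normalisation step. Such a run checks the code and cannot show how the scaling acts on the real data. A gene of a list was represented by its probe with the highest mean signal. Ratios and correlations used exact permutation tests. Python 3.11.15 with matplotlib 3.10.9 drew the figures.

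Lists hold the other members of the connexin, pannexin and claudin families, other tight junction proteins, and markers of squamous epithelium, skeletal muscle, endothelium, fibroblasts, leukocytes (1 higher and 0 lower of 2 kept), salivary gland (0 higher and 1 lower of 4), Schwann cells (1 kept, not called) and reference genes. Named were all members, the called genes of each junction list (up to 8 by size of change), genes defining other tissues, and the 3 genes most like each member. The members and lists were chosen with earlier results of these data known. Alternatives covered the background correction, scaling, signal filter, array weights, the replicate number as a block, an exact permutation test and arrays left out.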

Additional observations from a re-analysis of the deposited data

Results flagged for a closer look

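In tests of the 20 groups of member values, 2 had an array farther from the rest than the spread of the others allows, and chance flags about 1 in 20. Both lie on normal tongue 1, which also carried salivary gland markers. Its Cldn4 signal was 10.20, below the other 4 normals at 11.11 to 11.30. Its Cldn7 signal was 7.23, above the other 4 normals at 6.87 to 6.93. Without this array the Cldn4 change was 0.58 and was not called, with an adjusted p = 0.114 in limma.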

How the results depend on the processing

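All 3 Gjb2 probes kept their direction and call under the 23 alternatives tried, from log2 0.88 to 2.73. The 5 junction probes called higher were 3 under cyclic loess, 3 with the replicate number as a block, 3 with reference genes as the centre (then with 2 lower) and 3 with squamous epithelium markers as the centre (then with 5 lower). They were 4 to 5, with 0 lower, when 1 array was left out. Calls over all 15708 probes kept moved too, from 5102 higher and 3584 lower under the processing described above. Epithelium markers as the centre gave 454 higher and 13401 lower, and reference genes 1076 and 10795. Cyclic loess gave 3890 and 4304, and the replicate block 4469 and 3340. The junction counts, and the list counts that follow, were not tested against these shifts of all probes. In the other connexins the calls higher and lower were 0 and 6 with epithelium markers as the centre, 1 and 6 with reference genes, 1 and 1 with array weights and with the replicate block, and 1 and 0 to 1 over the leave-outs. In the other claudins the calls lower were 7 (epithelium markers), 6 (reference genes), 3 (no signal filter), 2 (cyclic loess), 2 (without normal 1 and tumour 2) and 1 to 2 over the leave-outs, with 0 higher. In the other tight junction proteins the calls higher were 1 (epithelium markers), 3 (reference genes), 8 (array weights), 8 (without normal 1 and tumour 2) and 5 to 7 over the leave-outs, where 9 to 10 were lower. The calls lower in that list were 15 (epithelium markers), 14 (reference genes) and 11 (cyclic loess, and array weights). They were 8 on the deposited values, with the replicate block, and without normal 1 and tumour 2.

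Directions turned as follows, and the cause was not tested beyond the shift of all probes that each centring makes. With epithelium markers as the centre Gja1 became −0.54, Cldn4 −0.16, Cldn7 −0.91, Ocln −0.81, Tjp1 −0.74, Patj −0.18 and F11r −0.20. With reference genes Gja1 became −0.18, Cldn7 −0.54, Ocln −0.45 and Tjp1 −0.37. Cyclic loess gave Cldn7 −0.0052 and Ocln over Tjp1 0.0101. Cldn1 was 0.0226 on the deposited values and 0.0245 without normal 1 and tumour 2, and −0.20 to 0.14 over the leave-outs, where Ocln was −0.0122 (without tumour 4) to 0.22. Without normal 1 and tumour 2 the ratio Cldn4 over Cldn1 was 0.73 and not called, and Cldn4 over Cldn7 was 0.67 and called. Over the leave-outs the ratios were 1.36 to 1.48 (Gjb2 over Gja1), 0.72 to 1.00 (Cldn4 over Cldn1), 0.48 to 0.94 (Cldn4 over Cldn7), −0.13 to 0.27 (Cldn7 over Cldn1) and −0.19 to −0.01 (Ocln over Tjp1). The correlation of Cldn4 with Cldn7 was −0.09 and turned to 0.11 without tumours 2 and 7.

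Same-numbered normals and tumours did not deviate together (r = −0.37 to 0.10 over 5 pairs). So few pairs cannot exclude that the numbers pair the samples. Under the replicate block Gja1 (0.33) and Cldn4 (0.56) were not called. Ocln and Gjb5 lie at the limit of what these arrays detect, and Cldn7 lies little above it.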
